A study of Mus musculus with 4 samples.

Results

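Tight junctions are belts of protein strands that seal the space between neighbouring epithelial cells. Claudins span the membrane and build the strands, occludin and junctional adhesion molecules lie beside them, and ZO scaffold proteins tie the strands to the actin skeleton. In the epidermis such junctions form in the granular layer, and mice without claudin 1 lose water through the skin and die soon after birth. Raising calcium in the medium of cultured keratinocytes, the epithelial cells of the epidermis, starts contacts between cells and terminal differentiation.

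Described here are 9 genes of this apparatus among the 30340 genes or targets on the array. They are the claudins Cldn1, Cldn3, Cldn4, Cldn7, Cldn8 and Cldn23, occludin (Ocln), the junctional adhesion molecule JAM-A (F11r) and the scaffold ZO-1 (Tjp1). They were chosen by name, as the genes whose symbol stands beside a non-control probe, and 12 probes matched. The choice was made with earlier results of these data known. Shares of all genes given beside their counts are therefore a description only. Cldn4, Cldn7 and Ocln have 2 probes each and the other 6 genes have 1.

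The study set keratinocytes lacking the secreted phospholipase A2 gene Pla2g2f against wild-type cells, all from newborn C57BL/6 mice and all grown for 3 days after release with 0.05% collagenase A. The 4 groups were Pla2g2f-/- cells held for 48 h with 1 mM CaCl2, Pla2g2f-/- cells without it, Pla2g2f+/+ cells with it and Pla2g2f+/+ cells without it. Each group is 1 array of RNA pooled from the cells of 6 mice, so differences carry neither a replicate check nor a p-value, the number of arrays limits the precision, and the genotype cannot be told apart from the batch of cells it was measured in. The errors given are the scanner's error of a spot, or of a difference between spots, and hold none of the spread between cultures.

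All 4 arrays lay on 1 slide, and 67.0% to 68.6% of the probes were well above background. A level is the log2 of the signal over the array's 75th percentile, so levels of 1 probe can be compared across arrays but not with those of another probe. The Pla2g2f probe read -3.53 and -3.78 in -/- cells with and without calcium, and -3.04 and -3.35 in +/+ cells with and without. All 4 readings were well above background, and those of -/- cells were 1.41-fold lower with calcium and 1.35-fold lower without. The labels do not say which part of the gene was removed, so this probe does not check the genotype.

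Sequences are shown for the genes on which the results turn, namely the 4 genes that were at least 2-fold higher with calcium in both genotypes, and Cldn4, the chromosomal neighbour of Cldn3. Each is the 250 bases before the transcription start in RefSeq's mouse table on GRCm38.p6, written 5′ to 3′ on the gene's strand. Capitals mark the motifs found, except for Cldn7, where they mark the 60 bases of that gene's second array probe.
Cldn1 (chr16:26371840-26372089, minus strand): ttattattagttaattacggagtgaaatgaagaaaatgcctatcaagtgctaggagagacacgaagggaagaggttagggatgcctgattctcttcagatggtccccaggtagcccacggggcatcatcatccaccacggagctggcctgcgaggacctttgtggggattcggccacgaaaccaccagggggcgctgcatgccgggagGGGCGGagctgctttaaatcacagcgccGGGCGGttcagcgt
Cldn3 (chr5:134985964-134986213, plus strand): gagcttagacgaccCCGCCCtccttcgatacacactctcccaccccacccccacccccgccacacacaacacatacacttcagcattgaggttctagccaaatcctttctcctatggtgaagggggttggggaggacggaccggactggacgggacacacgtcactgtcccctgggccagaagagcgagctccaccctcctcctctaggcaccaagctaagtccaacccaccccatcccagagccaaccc
Cldn4 (chr5:134946935-134947184, minus strand): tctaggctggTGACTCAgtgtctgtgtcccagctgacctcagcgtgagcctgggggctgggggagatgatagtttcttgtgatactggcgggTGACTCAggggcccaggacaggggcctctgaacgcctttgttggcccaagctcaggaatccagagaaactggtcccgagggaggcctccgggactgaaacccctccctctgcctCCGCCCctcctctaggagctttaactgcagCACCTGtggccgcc
Cldn7, downstream start (chr11:69965171-69965420, plus strand): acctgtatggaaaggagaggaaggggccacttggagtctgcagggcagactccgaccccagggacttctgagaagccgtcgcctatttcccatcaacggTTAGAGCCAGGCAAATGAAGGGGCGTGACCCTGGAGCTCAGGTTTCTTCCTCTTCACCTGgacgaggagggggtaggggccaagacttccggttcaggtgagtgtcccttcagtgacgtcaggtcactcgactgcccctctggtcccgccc
Ocln, upstream start (chr13:100552719-100552968, minus strand): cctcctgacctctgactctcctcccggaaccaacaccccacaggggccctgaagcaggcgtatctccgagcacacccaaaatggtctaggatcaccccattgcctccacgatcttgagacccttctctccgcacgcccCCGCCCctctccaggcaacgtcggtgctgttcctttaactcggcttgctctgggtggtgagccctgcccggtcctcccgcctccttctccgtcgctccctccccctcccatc

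These stretches were searched on both strands for CACCTG, the E-box bound by Snail and Zeb factors; TGANTCA, the AP-1 site; AACNGGTT, the grainyhead site; GGGCGG, the GC box of Sp1 and Klf factors; and TATAAA, the TATA box. The table held 7 of the 9 genes, with 9 start sites, and Cldn8 and Cldn23 are not in it. The AP-1 motif lay 240 to 234 and 158 to 152 bases before the Cldn4 start and 109 to 103 bases before the F11r start, and 6.75% of 32851 mouse promoters of this length hold it. The E-box lay before Cldn4 (14 to 9 bases), before F11r (122 to 117 bases), at 2 places before the downstream Cldn7 start and at 2 places before the downstream Ocln start, against 17.2% of all promoters. At least 1 GC box stood before every start of the 7 genes except the upstream Cldn7 start, which held no match to any motif. Of all promoters 32.7% hold a GC box. No match to the grainyhead motif (1.79% of all promoters) or the TATA motif (12.4%) was found before these 9 starts. A match is a run of letters and not a measured site. The G and C share of the 5 stretches shown was 55.6% for Cldn1, 60.8% for Cldn3, 62.0% for Cldn4, 60.0% for Cldn7 and 64.0% for Ocln, against a median of 52.4% over all promoters. Of the stretches not shown, the upstream Cldn7 one had 51.2%, the downstream Ocln one 69.2%, Tjp1 63.2% and F11r 60.0%.

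Transcripts of Cldn1, Cldn3, Cldn7 and Ocln were at least 2-fold higher with calcium than without it in both genotypes. Cldn23 passed 2-fold in -/- cells and Cldn4 in +/+ cells, Tjp1 was about 1.5-fold to 1.6-fold higher in each, and F11r and Cldn8 stayed below 2-fold. In -/- cells 5 of the 9 genes were at least 2-fold higher with calcium, against 2.99% of the 21428 genes compared, and 0 were at least 2-fold lower, against 0.602%. In +/+ cells 5 of 9 were at least 2-fold higher, against 2.47% of 21129, and 0 lower, against 1.01%. The median calcium response of the 9 genes was 1.22 in -/- and 1.18 in +/+ cells on the log2 scale, where the median of all genes was -0.03 and -0.07. Those 4 genes past 2-fold in both genotypes compare with 1.42% of 20347 genes measured in both. At 1.5-fold, 7 of 9 were higher in -/- cells (7.74% of all genes) and 0 lower (2.3%), while 6 were higher in +/+ cells (5.03%) and 1, Cldn8, was lower (5.91%). The 6 genes past 1.5-fold in both genotypes, which were Cldn1, Cldn3, Cldn4, Cldn7, Ocln and Tjp1, compare with 2.72% of all genes. Scaling the arrays to 7 basal keratinocyte genes in place of the percentile adds 0.65 to every log2 calcium response in -/- cells and 0.34 in +/+ cells, so that negative responses smaller than this, in any list below, turn positive. The median level of those 7 genes was itself lower with calcium by these amounts, and the scaling sets that difference to 0.

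**Figure D1:**
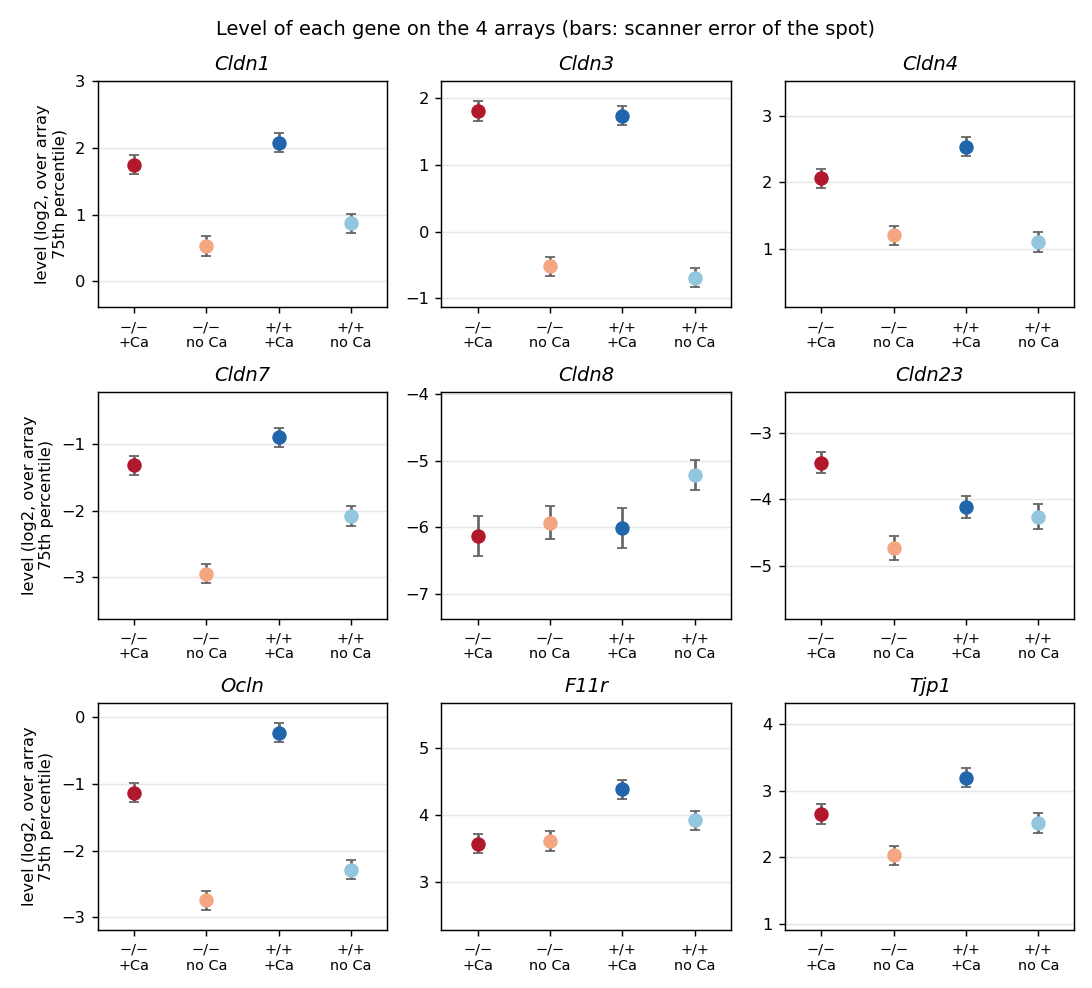
Level of each gene on the 4 arrays, in log2 over the array's 75th percentile, with panels of equal height and bars for the scanner error of the spot. The points with calcium lie above those without it for Cldn1, Cldn3, Cldn4, Cldn7, Ocln and Tjp1 within each genotype, and Cldn8 lies near the detection limit.

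Cldn1 encodes the claudin whose loss opens the epidermal barrier in mice. Its probe (chromosome 16, 26357372 to 26357431, mm9, minus strand) read 1.75 and 0.53 in -/- cells with and without calcium, and 2.08 and 0.87 in +/+ cells with and without. Both levels with calcium stood above both without it, and within each condition -/- cells were the lower. The calcium response was 1.22 ± 0.20 (log2, scanner error) or 2.33-fold in -/- cells and 1.21 ± 0.20 or 2.31-fold in +/+ cells. The difference between these responses was 0.01 ± 0.29, the smallest of the 9.

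Cldn3 and Cldn4 encode sealing claudins that serve in human and mouse cells as receptors for the enterotoxin of Clostridium perfringens. The Cldn3 probe (chromosome 5, 135463284 to 135463342, mm9, plus strand) read 1.81 and -0.52 in -/- cells with and without calcium, and 1.74 and -0.69 in +/+ cells. The response was 2.33 ± 0.20 (5.04-fold, rank 111 of 21428) in -/- cells and 2.43 ± 0.20 (5.39-fold, rank 114 of 21129) in +/+ cells, the largest calcium response of the 9 genes in each genotype. The genotypes differed by less than the scanner error both with calcium (0.07 ± 0.20) and without it (0.17 ± 0.20).

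The brighter Cldn4 probe (chromosome 5, 135421347 to 135421406, mm9, minus strand) read 2.06 and 1.21 in -/- cells with and without calcium, and 2.54 and 1.11 in +/+ cells. Without calcium the genotypes lay within the scanner error of each other, and with calcium -/- cells were the lower. The response was 0.86 ± 0.20 (1.81-fold) in -/- and 1.43 ± 0.20 (2.70-fold) in +/+ cells, a difference of -0.57 ± 0.29. The second probe (135422135 to 135422194) read 1.68 and 0.83 in -/- cells with and without calcium, and 2.14 and 0.70 in +/+ cells. Its responses were 0.85 in -/- and 1.44 in +/+ cells, so both probes had the same pattern.

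The start sites of Cldn3 and Cldn4 lie 39280 bases apart on opposite strands, with no other protein-coding gene of the RefSeq table between them. Non-coding genes were not looked at. The protein-coding genes on either side had no response of this size. Mettl27, beyond Cldn4, differed with calcium by -0.36 in -/- and -0.11 in +/+ cells, and Abhd11, beyond Cldn3, by -0.19 and -0.03. Cldn13, the next protein-coding gene after Mettl27, was not well above background on any array.

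Cldn7 encodes a claudin that also lies on the lateral membrane, where it binds EpCAM. Its brighter probe (chromosome 11, 69781255 to 69781314, mm9, plus strand) read -1.32 and -2.95 in -/- cells with and without calcium, and -0.90 and -2.08 in +/+ cells. The order over the 4 groups was that of Cldn1, with the level lowest in -/- cells without calcium. The response was 1.62 ± 0.21 (3.08-fold) in -/- and 1.18 ± 0.21 (2.27-fold) in +/+ cells, a difference of 0.44 ± 0.29.

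The second Cldn7 probe (69778772 to 69778831, mm9) gave another picture. Its 60 bases, in capitals above, lie 151 to 92 bases before the downstream start, and the upstream start of the gene is 642 bases before the downstream one. The CACCTG at 97 to 92 bases forms the end of the probe. It read -5.59 and -6.93 in -/- cells with and without calcium and -6.41 and -6.02 in +/+ cells, and was well above background only in -/- cells with calcium. Against the detection limit this is at least 1.93-fold higher with calcium than without in -/- cells and at least 1.54-fold higher in -/- than in +/+ cells with calcium. With the mean of both probes in place of the brighter one, the Cldn7 response was 0.40 in +/+ cells, below 2-fold.

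Cldn8 encodes a claudin best known from mouse kidney and colon, and was the gene nearest the detection limit. Its probe (chromosome 16, 88561135 to 88561194, mm9, minus strand) read -6.13 and -5.93 in -/- cells with and without calcium, and -6.00 and -5.21 in +/+ cells. These stand for intensities of 47.1 and 47.4 in -/- cells and 42.7 and 71.3 in +/+ cells. Only +/+ cells without calcium stood above the other 3 groups by more than the scanner error. The response was -0.20 ± 0.39 in -/- cells and -0.79 ± 0.37 in +/+ cells. Its protein-coding neighbour Cldn17 was not well above background on any array.

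Cldn23 encodes a less studied claudin. Its probe (chromosome 8, 36888537 to 36888596, mm9, minus strand) read -3.45 and -4.73 in -/- cells with and without calcium, and -4.11 and -4.26 in +/+ cells. The 2 levels of -/- cells enclose those of +/+ cells. The response was 1.28 ± 0.24 (2.43-fold) in -/- cells and 0.15 ± 0.25 (1.11-fold) in +/+ cells, a difference of 1.14 ± 0.34 or 2.20-fold, rank 229 of 19227. It was the only one of the 9 genes whose responses differed at least 2-fold in either direction, against 1.91% of the genes for a higher and 0.629% for a lower response in -/- cells. At 1.5-fold, 2 genes (Cldn8 and Cldn23) had the higher response in -/- cells and 0 the lower, where 7.08% and 2.48% of all genes did. For Cldn8 this was a smaller fall (-0.20 against -0.79). Its difference of 0.59 ± 0.54 was 0.19 with quantile scaling. The Cldn23 probe is dim, with intensities of 302.2 and 108.8 in -/- and 158.5 and 137.9 in +/+ cells, and the difference of responses was below 2-fold with quantile scaling (0.93), normexp (0.75) or no background correction (0.82).

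Occludin, a MARVEL-domain protein of the strands, had the second-largest response in +/+ cells. The brighter Ocln probe (chromosome 13, 101268529 to 101268588, mm9, minus strand) read -1.13 and -2.75 in -/- cells with and without calcium, and -0.23 and -2.29 in +/+ cells. Both levels with calcium stood above both without it, and -/- cells were the lower in each condition. The response was 1.62 ± 0.21 (3.07-fold, rank 239) in -/- and 2.06 ± 0.21 (4.17-fold, rank 153) in +/+ cells. The second probe (101267384 to 101267443) read -4.47 and -6.08 in -/- cells, and -4.01 and -5.66 in +/+ cells with and without calcium, the last not well above background. By that probe the response was 3.05-fold in -/- cells and at least 3.13-fold in +/+ cells.

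JAM-A, an immunoglobulin-like adhesion protein that recruits polarity proteins to new contacts, differed least with calcium in -/- cells. The F11r probe (chromosome 1, 173393848 to 173393907, mm9, plus strand) read 3.57 and 3.61 in -/- cells with and without calcium, and 4.39 and 3.92 in +/+ cells. In -/- cells the 2 levels lay within the scanner error (-0.04 ± 0.20), and in +/+ cells the level was 1.38-fold higher with calcium (0.47 ± 0.20). The responses differed by -0.51 ± 0.29.

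ZO-1 is the scaffold that binds claudins, occludin and JAM-A from the cell side. The Tjp1 probe (chromosome 7, 72441126 to 72441185, mm9, minus strand) read 2.65 and 2.03 in -/- cells with and without calcium, and 3.19 and 2.52 in +/+ cells. The response was 0.62 ± 0.20 (1.54-fold) in -/- and 0.68 ± 0.20 (1.60-fold) in +/+ cells, with a difference of -0.06 ± 0.29. It passed 2-fold in both genotypes only with arrays scaled to basal keratinocyte genes (1.26 in -/- and 1.02 in +/+ cells), whose own median level was lower with calcium.

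**Figure D2:**
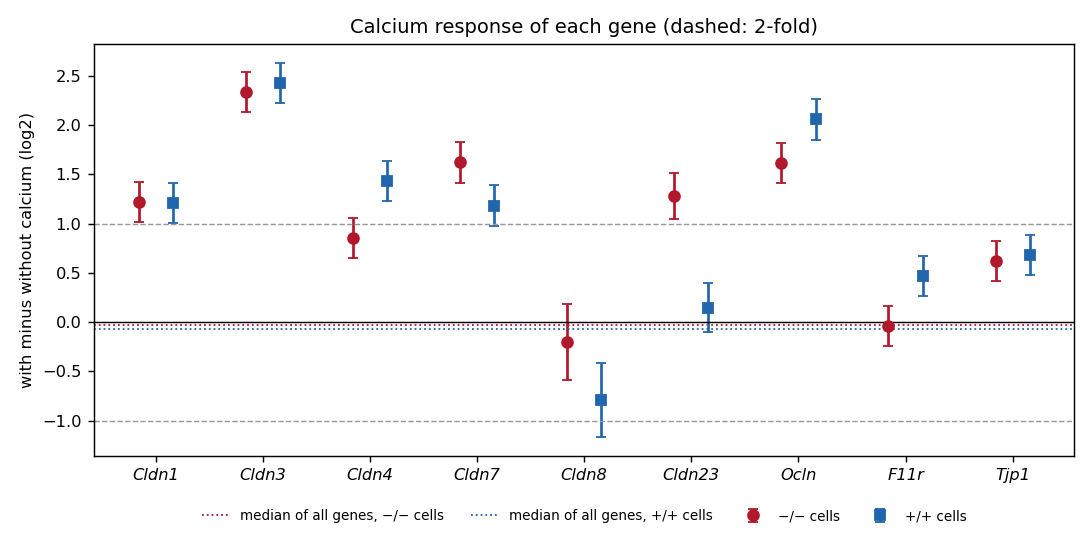
Calcium response (level with minus level without calcium, log2) of each gene in -/- cells (red circles) and +/+ cells (blue squares), with bars for the scanner error, dashed lines at 2-fold and dotted lines at the medians of all genes. Cldn3 lies highest in both genotypes at 2.33 and 2.43, and Cldn23 has the widest gap between genotypes, 1.28 in -/- against 0.15 in +/+ cells.

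Between genotypes 0 of the 9 genes differed by 2-fold in either condition. With calcium 9.6% of 21564 genes differed by 2-fold either way (6.55% higher and 3.05% lower in -/- cells), and without calcium 8.97% of 21346 did (4.65% higher and 4.32% lower). The median of all genes was itself below 0, at -0.16 with and -0.18 without calcium, and 63.0% and 67.5% of all genes were lower in -/- cells. The medians of the 9 genes were -0.42 with calcium and -0.46 without, and 7 of 9 genes were lower in -/- cells in each condition, though with arrays scaled to basal keratinocyte genes 7 of 9 were higher with calcium (median 0.14, where that of all genes was 0.41) and 7 of 9 still lower without it (median -0.20). That scaling adds 0.56 with calcium and 0.26 without to every log2 genotype difference, here and in the lists below. The median level of the basal genes was lower in -/- cells by the same amounts.

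With calcium the largest differences were those of Ocln, which was 1.87-fold lower in -/- cells (-0.90 ± 0.20), and F11r, which was 1.76-fold lower (-0.82 ± 0.20). Relative to the median of all genes these were -0.75 and -0.66. Cldn23 was the only gene of the 9 that was at least 1.5-fold higher, by 1.58-fold (0.66 ± 0.23). At that threshold 1 gene was higher and 2 lower, where 12% and 12.4% of all genes were. Tjp1 (-0.54), Cldn4 (-0.47), Cldn7 (-0.42) and Cldn1 (-0.33) were lower by more than the scanner error of 0.20, and scaling to basal keratinocyte genes turned each of these 4 to the other sign, as the mean of both probes did for Cldn7.

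Without calcium Cldn7 was 1.82-fold lower in -/- cells (-0.86 ± 0.21, or -0.69 relative to the median of all genes) and Cldn8 was 1.65-fold lower (-0.72 ± 0.33). No gene of the 9 was at least 1.5-fold higher, against 8.79% of all genes, and these 2 were lower, against 16.1%. Tjp1 (-0.48), Cldn23 (-0.47), Ocln (-0.46), Cldn1 (-0.34) and F11r (-0.31) were also lower by more than the scanner error. Cldn3 (0.17) and Cldn4 (0.10) lay within it.

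**Figure D3:**
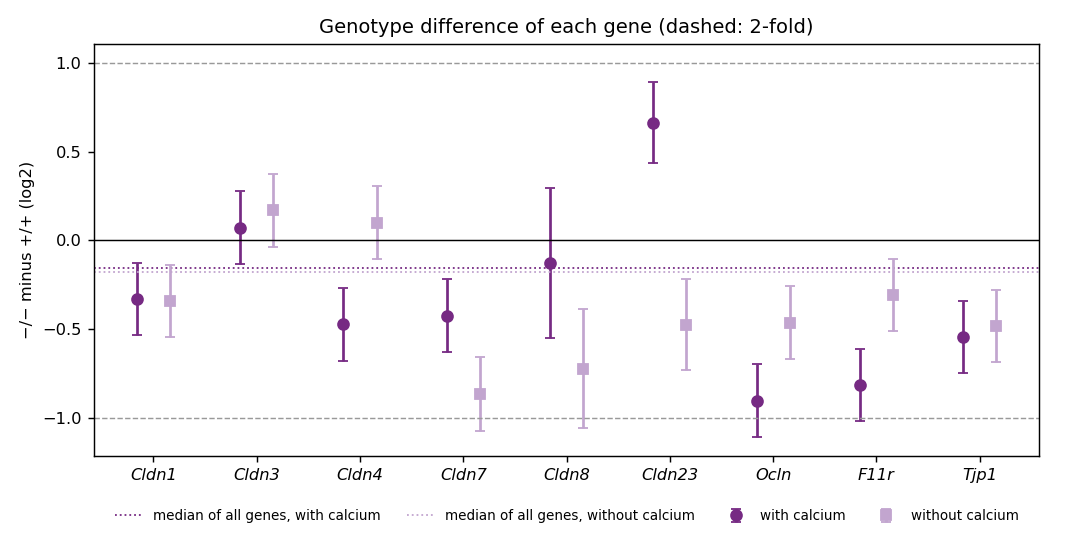
Genotype difference (level in -/- minus level in +/+ cells, log2) of each gene with calcium (dark circles) and without it (light squares), with bars for the scanner error, dashed lines at 2-fold and dotted lines at the medians of all genes. All points lie between the dashed lines, and Cldn23 is the one gene well above 0 with calcium (0.66) and below 0 without it (-0.47).

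Among the markers of the labelled cell type, Krt14, a keratin of basal keratinocytes, read 6.06 and 6.11 in -/- cells with and without calcium, and 6.59 and 6.58 in +/+ cells. Over 14 keratinocyte markers the median genotype difference was -0.43 with calcium (13 of 14 lower) and -0.19 without (11 of 12 lower), near the values of the 9 junction genes with calcium and above them without. The exception with calcium was Dsg1a, 10.05-fold higher in -/- cells. Lor was 2.54-fold lower with calcium and was the exception without it (0.34). Its calcium response was 5.18-fold in -/- and 16.6-fold in +/+ cells. The summed linear level of those well above background on all arrays was 305 and 358 in -/- cells with and without calcium, and 432 and 434 in +/+ cells. Such sums, here and below, add levels of different probes, which cannot be compared with each other. Each sum is weighted towards its brightest probes, here those of Krt5, Krt14 and Perp. A sum is therefore not a measure of the amount of a cell type. In pooled RNA, fewer cells of a type and less RNA per cell cannot be told apart.

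Markers of several other cell types were higher in -/- cells. All 8 measured mast cell markers and all 8 measured adipocyte markers were at least 2-fold higher in -/- cells in both conditions. So were 6.55% of all genes with calcium and 4.65% without, shares that also stand beside the counts below. The summed mast cell level was 11.49 and 11.54 in -/- cells with and without calcium, against 1.69 and 1.53 in +/+ cells, and the adipocyte sum was 105 and 130 against 26.6 and 39.6. Fabp4 had the brightest probe of the adipocyte list and weighed most in that sum. Of the Langerhans and myeloid markers 7 of 12 passed 2-fold with calcium and 6 of 13 without, with sums of 29.5 and 21 against 8.75 and 8.89. With calcium 3 of the 12 were lower in -/- cells, namely H2-Ab1 (-0.72), Cd74 (-0.26) and Itgam (-0.89). Without calcium 2 of the 13 were lower, H2-Ab1 (-0.72) and Itgam (-0.17). Cd207 of this list was not well above background on any array. Of the fibroblast markers 6 of 9 passed 2-fold with calcium and 1 of 9 without, with sums of 209 and 193 against 114 and 128. The part of these markers in the genotype differences of the junction genes was not tested.

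Markers of endothelial cells, melanocytes and Schwann cells differed less between genotypes. Summed levels with and without calcium were 1.97 and 2.08 in -/- against 3.1 and 2.83 in +/+ cells for endothelial markers, 36.9 and 45.2 against 48.8 and 43.3 for melanocyte markers, and 18.1 and 19.3 against 16.5 and 16.8 for Schwann cell markers. Sweat gland and sebaceous markers summed to 11.7 and 7.93 in -/- cells, against 3.6 and 4.08 in +/+ cells. In -/- cells with calcium the brightest probes of this list, those of Scd1 and Krt79, weighed most in the sum. The median genotype difference of the list was -0.01 with calcium (4 of 8 above 0) and 0.23 without (4 of 7). The largest differences in the list with calcium were those of Krt79 (5.97-fold higher in -/- cells) and Scd1 (2.92-fold higher).

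Some markers of simple epithelia and Merkel cells were higher with calcium, as most of the junction genes were. Of those measured, 3 of 8 were at least 2-fold higher and 1 lower in -/- cells (median 0.62), and 4 of 6 were higher and 0 lower in +/+ cells (median 1.05). The shares of all genes were 2.99% higher and 0.602% lower in -/- cells, and 2.47% and 1.01% in +/+ cells. The summed level of the simple epithelial and Merkel markers was 9.47 and 4.3 in -/- cells with and without calcium, and 17.2 and 10.2 in +/+ cells. Krt8 was higher with calcium by 1.40 in -/- and 1.05 in +/+ cells, and Krt18 by 1.35 and 0.58. Krt20, a keratin of Merkel cells, was lower with calcium by -1.30 in -/- cells (2.47-fold) and by -0.63 in +/+ cells. Of the factors that define Merkel cells, Isl1 was not well above background on any array and Atoh1 only in -/- cells without calcium. Another such factor, Sox2, was well above background in -/- cells with calcium (-4.65) and without it (-4.12) but on neither +/+ array, and was at least 2.65-fold higher in -/- cells with calcium and at least 3.10-fold higher without. The part of these markers in the calcium responses was not tested.

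Of 25 other claudin and claudin-domain genes, 24 were on the array, 13 were well above background on at least 1 array and 11 on none. In neither genotype was any of them at least 2-fold different with calcium (0 of 13 in -/- cells, median 0.13, and 0 of 11 in +/+ cells, median -0.26). Of all genes 2.99% were higher and 0.602% lower in -/- cells, and 2.47% and 1.01% in +/+ cells. A count of 0 in a list this short lies near those shares. The largest measured calcium response was that of Cldn15, a claudin of the mouse intestine, which was lower with calcium by -0.66 in -/- and -0.78 in +/+ cells. Between genotypes, however, Cldn15 read -0.49 and 0.17 in -/- cells with and without calcium, and -3.46 and -2.68 in +/+ cells, or 7.85-fold and 7.23-fold higher in -/- cells. Cldn10, a claudin of kidney and sweat gland, read -0.96 and -1.08 in -/- cells, and -2.78 and -2.36 in +/+ cells, or 3.53-fold and 2.42-fold higher. The mast cell and adipocyte markers were higher in the same cells, and their part in the Cldn15 and Cldn10 differences was not tested. Cldn19, named after its values were seen, was at least 2.13-fold lower in -/- cells without calcium, where it was not well above background. In +/+ cells without calcium it read -5.35, and the lowest level well above background on that array was -6.07. With calcium it was higher in -/- cells, by 0.28.

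The other membrane proteins of tight junctions held none at least 2-fold lower with calcium, against 0.602% of all genes in -/- and 1.01% in +/+ cells. In each genotype 3 were at least 2-fold higher, of 11 in -/- cells (2.99% of all genes) and 10 in +/+ cells (2.47%). These were Crb3, which sets the apical membrane (2.60-fold in -/- and 2.59-fold in +/+ cells), Ildr1, or angulin-2 (2.48-fold and 3.92-fold), and Marveld2, or tricellulin (2.46-fold and 2.43-fold). Ildr1 and Marveld2 serve where the corners of cells meet. The list medians were 0.22 and 0.24. By the brightest probes Ildr1 was the one gene past 2-fold between genotypes, 2.40-fold higher in -/- cells with calcium and 3.79-fold higher without. Of all genes 9.6% were past 2-fold either way with calcium and 8.97% without. The second Marveld3 probe differed by -1.20 with calcium and -0.92 without, where the brighter one gave -0.95 and -0.83. That second probe had calcium responses of 1.11 in -/- and 1.39 in +/+ cells, against 0.86 and 0.98 by the brighter one. The second Crb3 probe differed between genotypes by -0.74 with calcium and -1.04 without.

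With calcium 2 of 28 scaffold and polarity genes were at least 2-fold higher in -/- cells (2.99% of all genes). In +/+ cells 3 were (2.47%), and the list medians were 0.07 in -/- and 0.15 in +/+ cells. Cingulin (Cgn), which links the junction to myosin, was 2.37-fold higher in -/- and 2.21-fold higher in +/+ cells. Tjp3, which encodes the scaffold ZO-3, was 2.56-fold higher in -/- and 1.82-fold higher in +/+ cells. Magi3 passed 2-fold in +/+ cells by its brighter probe (1.14), while its second probe gave 0.36. In the genotype comparison the list held 0 genes at least 2-fold higher, against 6.55% of all genes with calcium and 4.65% without. With calcium 5 of 28 were at least 2-fold lower (3.05% of all genes), and without it 4 of 27 were (4.32%). Amot, a regulator of junction polarity, was 2.81-fold lower in -/- cells with calcium and 3.49-fold lower without. Afdn, which joins nectins to actin, was 2.66-fold and 2.15-fold lower, and the polarity gene Pard6b was 2.44-fold and 2.04-fold lower. Micall2, an effector of Rab13 in junction transport, was 3.33-fold lower with calcium, and Amotl2, named after its values were seen, 2.07-fold. Without calcium Magi2 was 2.08-fold lower.

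The 13 adherens junction genes had medians of 0.09 and 0.12 with calcium in -/- and +/+ cells, with Nectin4 the one gene past 2-fold (3.83-fold in -/- and 3.78-fold in +/+ cells). Of all genes 2.99% and 2.47% were at least 2-fold higher. Plakoglobin (Jup) was 1.85-fold and 1.82-fold higher, and P-cadherin (Cdh3) was lower by -0.56 and -0.60. Between genotypes 0 of 13 differed by 2-fold in either condition, where 9.6% of all genes did with calcium and 8.97% without.

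Among 28 measured regulators linked to epidermal junctions, 4 were at least 2-fold higher with calcium in -/- cells (2.99% of all genes). In +/+ cells 6 were (2.47%). Grhl1 and Grhl3, grainyhead-like factors of the epidermal barrier, were 6.29-fold and 3.90-fold higher in -/- cells, against 5.22-fold and 7.68-fold in +/+ cells. Ovol1, a repressor that promotes differentiation, was 4.42-fold higher in -/- and 5.54-fold higher in +/+ cells. The protease prostasin (Prss8) read 0.32 and -1.68 in -/- cells with and without calcium, and 1.36 and -1.13 in +/+ cells, which is 5.62-fold higher with calcium in the +/+ cells. Elf3 (3.05-fold) and Spint1 (2.15-fold) passed 2-fold in +/+ cells, both named after their values were seen for this comparison. In the genotype comparison with calcium 4 were at least 2-fold higher in -/- cells (6.55% of all genes) and 5 lower (3.05%). There Grhl3 was 2.49-fold lower and Elf3 3.16-fold lower. Pparg, which is also an adipocyte marker, was 5.77-fold higher with calcium and 4.49-fold higher without. Ppara was 4.01-fold higher with calcium by its brightest probe, but 1 of its 3 probes gave 0.01.

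**Figure D4:**
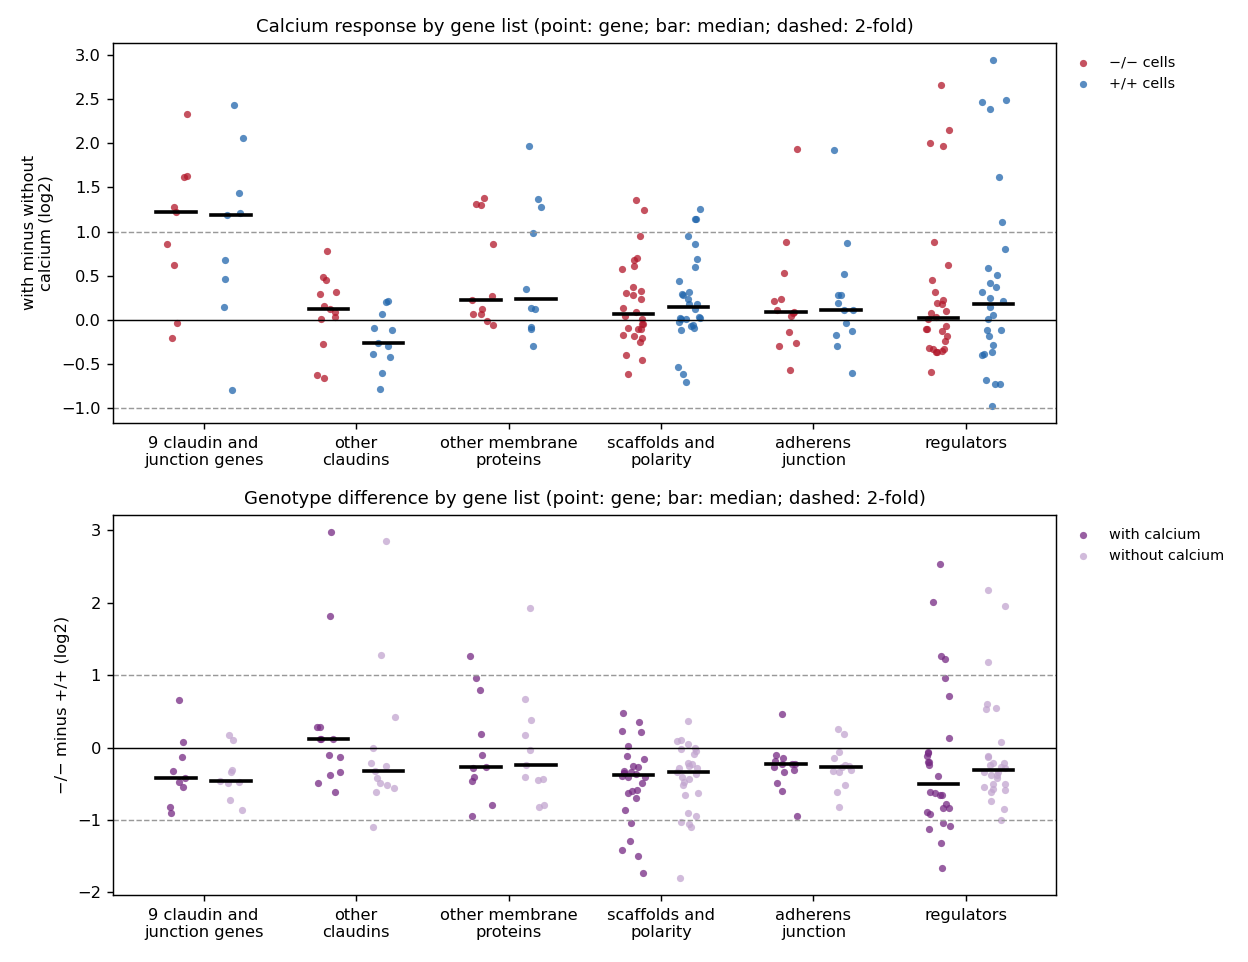
Calcium response (top, log2, -/- cells red and +/+ cells blue) and genotype difference (bottom, log2 of -/- minus +/+, with calcium dark and without it light) of each gene in 6 lists, with bars at the list medians and dashed lines at 2-fold. The medians of the 9 junction genes with calcium, 1.22 in -/- and 1.18 in +/+ cells, lie above those of the other 5 lists, and Cldn15 lies highest in the lower panel at 2.97 and 2.85. All 6 lists were chosen with earlier results of these data known.

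The genes whose levels lay nearest to those of each of 7 genes, by the root mean square distance of 4 array-centred log2 levels, were sought among 14436 named genes well above background on all arrays. Cldn8 and F11r varied by less than 1 log2 and were not searched. The nearest to Cldn1 were Cgn (0.027 log2) and Dsc3, which encodes a desmosomal cadherin (0.029). Nearest to Cldn3 were Sowahb (0.043) and Pcdh1 (0.055), although the second Pcdh1 probe differed, with calcium responses of 0.50 in -/- and -0.01 in +/+ cells. Cldn4 lay nearest to Tuft1 (0.043), and Cldn7 to envoplakin (Evpl, 0.038), a protein of the cornified envelope, and the lipid transporter Abca12 (0.091). Ocln lay nearest to the growth factor gene Ereg (0.084), and Tjp1 to Llgl2 (0.025), a polarity gene. The nearest to Cldn23 were farther off, with Tmem95 at 0.096 and Gask1a at 0.101. Likeness over 4 arrays is a description only.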

How the data were processed

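RNA (200 ng per array) from 4 pooled samples was hybridised to 1-colour Agilent arrays, 1 per group, on 1 slide. The deposited scanner signal is an intensity with background subtracted, per the file headers. The authors' software was Agilent Feature Extraction 11.5.1.1, per the submitters' processing notes. The deposited value table is a ratio, equal to that signal over the array's 75th percentile to within 2.3e-07 in relative terms. Its medians were 0.0645, 0.0612, 0.0623 and 0.0660 in -/- cells with and without calcium and +/+ cells with and without. Background and outlier flags are the scanner's, as deposited. No spot was saturated.

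From the signals, outlier spots (131 to 152 per array) were dropped, log2 was taken, and the 75th percentile over 43020 non-control spots (3300, 2889, 2737 and 2638 intensity units in the same order) was subtracted. Repeat spots had a median SD of 0.06 log2 on each array. Of 39429 probes 27508 were named through their accession. The brightest probe stood for a gene. Genes dim on both arrays of a comparison were left out of it. A dim array was set to the higher of its value and the lowest level well above background there, which makes the difference a lower bound. Differences were counted at 2-fold with no test. No paired fit could be made.

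The 9 genes, 16 lists (209 genes, 2 not on the array) and the search for like genes were chosen with earlier results of these data known. Named were the 9 genes and, per list and comparison, from up to 4 of the largest and 2 of the smallest measured differences, and the 3 nearest genes per searched gene, from which the text draws. The text prints some of these genes, and 1 of them is not reported here. Alternatives were other scalings, background corrections, probe rules, filters and thresholds. The steps were tested on simulated data. Exon annotation of the probes was not used here. Tools were numpy 2.4.6, pandas 2.3.3 and matplotlib 3.10.9 under Python 3.11.15, and limma 3.58.1 under R 4.3.3.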

Additional observations from a re-analysis of the deposited data

Results flagged for a closer look

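Among the 9 genes, 3 had opposite signs under the same contrast in the 2 settings, and with 1 array per group none of these differences was tested. Cldn23 was higher in -/- than in +/+ cells with calcium (0.66 log2) and lower without it (-0.47). Cldn4 was lower in -/- cells with calcium (-0.47) and 0.10 higher without it, the second value within the scanner error of 0.20. The calcium response of F11r was -0.04 in -/- cells, within the scanner error, and 0.47 in +/+ cells.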

How the results depend on the processing

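Of 360 values of the 9 genes under 8 alternatives, 306 moved by less than the scanner error and 54 by more, and 0 past 2-fold turned sign. The 5 genes past 2-fold in the calcium response became 3 in -/- and 2 in +/+ cells at 3-fold. The 0 in the genotype difference became 3 with calcium and 2 without at 1.5-fold, and 1 (Cldn23) with calcium under scaling to basal keratinocyte genes, which was added after seeing the data. The 1 gene with responses at least 2-fold apart became 0 with quantile scaling, normexp, no background correction or 3-fold, and 2 with the mean of probes or at 1.5-fold. The causes were not tested, apart from the thresholds themselves. Cldn23 fell short of 2-fold in -/- cells with normexp or no background correction, which left 4 genes. Scaling to basal keratinocyte genes put Cldn4 and Tjp1 past 2-fold in -/- cells, and moved the medians of all genes to 0.62 and 0.27 in the calcium response of -/- and +/+ cells, and to 0.41 and 0.08 in the genotype difference with and without calcium.

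Over all genes, higher and lower calls in the calcium response of -/- cells were 640 and 129, against 318 and 26 with normexp, 351 and 28 with no background correction and 3109 and 19 with basal scaling, so that higher calls were 83.2%, 92.4%, 92.6% and 99.4% of the calls, and 73.1% with quantile scaling. In +/+ cells they were 522 and 214, against 328 and 62 with normexp, 330 and 70 with no background correction and 915 and 82 with basal scaling (70.9%, 84.1%, 82.5% and 91.8% higher). In the genotype difference with calcium they were 1413 and 658, against 947 and 374 with normexp and 3358 and 185 with basal scaling (68.2%, 71.7% and 94.8%). Without calcium they were 992 and 922, against 654 and 188 with normexp, 654 and 261 with no background correction, 1180 and 390 with quantile scaling and 1429 and 375 with basal scaling (51.8%, 77.7%, 71.5%, 75.2% and 79.2%). For the responses compared they were 367 and 121, against 114 and 66 with normexp, 143 and 63 with no background correction, 190 and 182 with quantile scaling and 942 and 58 with basal scaling (75.2%, 63.3%, 69.4%, 51.1% and 94.2%). No paired analysis was possible because each group is 1 array with no replicate number. Levels near the detection limit, such as those of Cldn8, carry the largest scanner error.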
